A study of Mus musculus with 12 samples.

Results

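Slc22a6 and Slc22a8 encode the organic anion transporters OAT1 and OAT3. They were taken as the rows of the deposited transcript table in a window of the plus strand of chromosome 19 (mm9) that covers both genes, which gave 4 of the 55418 rows and 2 of the 26699 loci formed from them. Slc22a6 is the single transcript uc008gme.2 (chromosome 19, 8692485 to 8702789), and Slc22a8 is a locus of 3 transcripts (chromosome 19, 8665743 to 8686325). Slc22a6 was chosen because it was far lower in mutant than in control cells of the population titled low expression, and Slc22a8 is the related gene that lies next to it. The fold changes between the low groups, and those that share a low group, are therefore given as descriptions, with no test.

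RNA was measured in 12 libraries of sorted newborn mouse kidney cells (postnatal day 0), labelled as fetal kidney cells carrying an R26R-tdTomato reporter. Six2 marks the progenitors of the nephron, and Six2-expressing cells were isolated by flow cytometry. The titles divide the samples into control and mutant, and into high and low expression, without saying which signal was high or low. There were 2 control high, 2 mutant high, 4 control low and 4 mutant low samples. The series title names Eed, a member of the Polycomb group, while the sample labels name neither the mutated allele nor a Cre driver. The reporter is carried by all 4 groups. Nothing in the labels says that samples came from separate animals, so the p-values measure the spread between these libraries, which may be technical.

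Both proteins sit in the basolateral membrane of the proximal tubule cell, the segment that reabsorbs most of the filtrate and secretes organic anions. They take anions up from the blood side in exchange for dicarboxylates, and they carry drugs, toxins and metabolites such as para-aminohippurate and urate. Their transcripts are known as markers of proximal tubule cells that have begun to mature, and nephron progenitors are not known for them.

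The names were checked against RefSeq (GRCm38.p6), since the table itself holds no gene names. The file's Slc22a8 locus spans 20582 bases, which is the RefSeq span of Slc22a8 and of 1 RefSeq gene in all. The Slc22a6 transcript spans 10304 bases, the RefSeq span of Slc22a6, which 2 RefSeq genes share. RefSeq places 0 protein-coding genes between the pair. In the file no transcript of the other strand overlaps either gene. The promoters are shown because both genes were high and low in the same groups. They are the 250 bases before the RefSeq start on the plus strand of chromosome 19 (GRCm38.p6), Slc22a8 at chr19:8592932-8593181 and Slc22a6 at chr19:8617746-8617995, with the letters GTTAAT in capitals.
Slc22a8: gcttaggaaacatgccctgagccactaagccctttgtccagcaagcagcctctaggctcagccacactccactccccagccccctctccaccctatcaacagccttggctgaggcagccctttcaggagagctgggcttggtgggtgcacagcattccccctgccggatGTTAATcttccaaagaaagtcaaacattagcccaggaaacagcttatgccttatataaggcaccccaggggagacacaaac
Slc22a6: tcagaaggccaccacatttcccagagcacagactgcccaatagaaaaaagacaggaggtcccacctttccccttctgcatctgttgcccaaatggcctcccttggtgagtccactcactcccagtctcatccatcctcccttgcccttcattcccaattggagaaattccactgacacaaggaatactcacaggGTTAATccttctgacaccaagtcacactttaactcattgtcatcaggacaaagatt
GTTAAT is the half-site bound by HNF1 factors, which are transcription factors of the proximal tubule and other epithelia. It was searched on both strands and occurred once in each promoter, on the plus strand, starting 81 bases before the Slc22a8 start and 56 bases before the Slc22a6 start. Of 32851 mouse promoters of the same length, 6.43% held it on either strand. The exact letters TATAAA, a form of the TATA box, and AGGTCA, a nuclear receptor half-site, had 0 matches in either window. Of all promoters, 12.37% and 14.02% held them. This says only that these letters are not in these 250 bases. Related forms, such as tatataa near the end of the printed Slc22a8 sequence, were not searched, so 0 matches does not mean that a TATA box is absent. CCAAT or its reverse complement matched 3 times in Slc22a6, where the last 2 matches overlap each other, and 0 times in Slc22a8, and 33.8% of promoters held it. No match overlapped GTTAAT. These motifs were chosen after the promoters had been seen, and a match is not evidence of binding.

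Both genes were most abundant in control high cells, followed by mutant high, control low and mutant low cells, and in this order no 2 neighbouring groups overlapped for either gene. Levels are fragments scaled to a common library size (CPM, TMM-scaled). Because they are not per transcript length, each gene is compared only with itself. For Slc22a6 the control high libraries held 2374 and 1390.4 CPM and the mutant high libraries 218 and 240.0 CPM. The control low libraries held 25.6, 50.3, 10.9 and 46.7 CPM, and the mutant low libraries 1.96, 1.52, 0.333 and 0.162 CPM. The largest spread in CPM was thus in control high cells, and relative to the mean it was widest in mutant low cells, where the values rest on 17, 10, 3 and 2 fragments.

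Slc22a8 gave the same order. Its control high libraries held 301 and 273 CPM and its mutant high libraries 51.1 and 40.2 CPM. The control low libraries held 8.30, 12.8, 1.95 and 8.04 CPM, and the mutant low libraries 1.27, 0.457, 0.9999 and 0.568 CPM. Control low replicate 3 was the lowest control low library for both genes. For Slc22a8 it stood only 1.53-fold above the highest mutant low library, and the counting interval of that control library (1.15 to 3.07 CPM, exact Poisson, 95%) overlapped that of the mutant one (0.634 to 2.27 CPM). Such intervals cover counting error only.

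**Figure D1:**
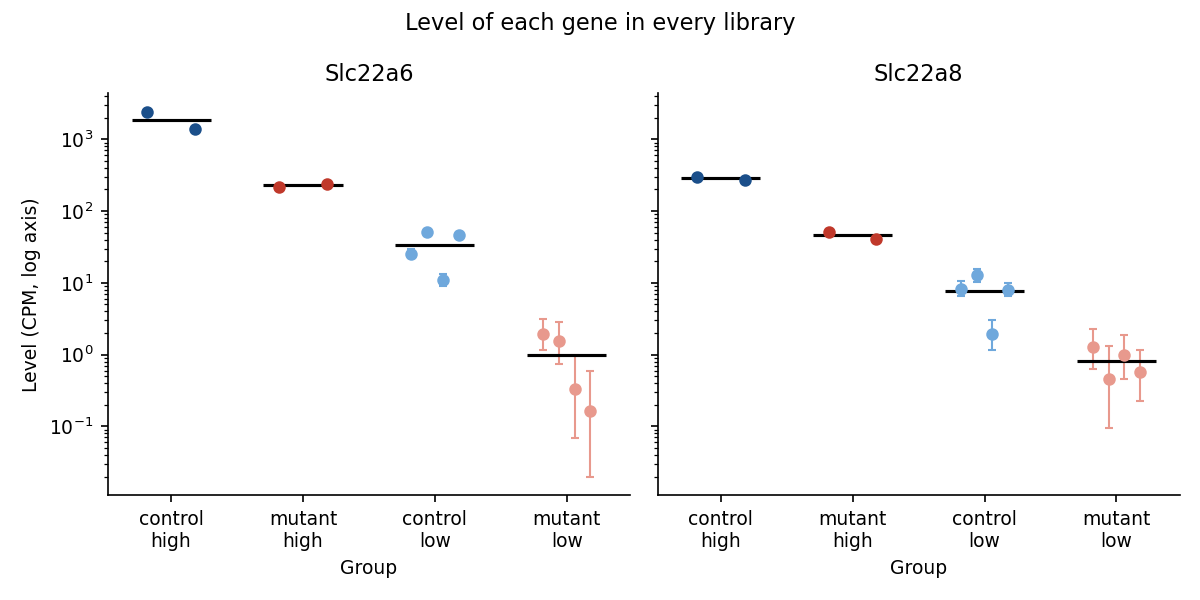
Level of Slc22a6 (left) and Slc22a8 (right) in each of the 12 libraries, in CPM on a log axis; points are libraries, bars on points are exact Poisson 95% intervals, and black lines are group means. For both genes the groups lie in the order control high, mutant high, control low, mutant low, with Slc22a6 means of 1882, 229, 33.4 and 0.996 CPM.

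The Slc22a8 fragments came from 1 of its 3 transcripts. The table assigned 963 to 1448 fragments in control high cells and 327 to 529 in mutant high cells to uc008gmd.2, which starts 1928 bases inside the locus. The 2 transcripts that start at the beginning of the locus, uc008gmc.2 and uc012bia.1, held at most 0.0192 estimated fragments in any library. The same distance of 1928 bases separates the RefSeq gene start from the start site whose promoter is printed above. Slc22a6 has a single transcript in the table, so its fragments were not divided between isoforms.

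The effect of the mutant in high cells can be tested, since none of these 4 libraries entered the comparison that chose the genes. Each high library does share its description number with a low library of its genotype, and the labels do not say what that number marks. The fit also shares its estimate of spread with the low libraries. The test may therefore not be fully independent of the choice. Both transporters were lower in mutant high cells. The mean Slc22a6 level was 1882 ± 695 CPM without and 229 ± 15.4 CPM with the mutation (SD, n = 2 each). It fell by 3.04 on the log2 scale (SE 0.78, 95% interval -4.75 to -1.33, edgeR quasi-likelihood adjusted p = 0.0141). Slc22a8 averaged 287 ± 19.9 CPM and 45.7 ± 7.68 CPM (SD, n = 2 each), and it fell by 2.65 (SE 0.56, 95% interval -3.86 to -1.44, adjusted p = 0.00386 in edgeR). Each gene was lower in 2 of 2 mutant libraries, and the lowest control library stood 5.79-fold (Slc22a6) and 5.34-fold (Slc22a8) above the highest mutant one. Of 13749 loci tested, 11.2% were called lower in this comparison. That share was 6.74% and 5.84% without control high replicate 1 or 2, 7.32% and 4.19% without mutant high replicate 1 or 2, 6.53% without the filter on low counts and 2.65% with transcripts kept separate.

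The test of Slc22a8 held under all 21 alternative settings, with edgeR, limma or DESeq2 adjusted p from 4.32e-05 to 0.0493. Slc22a6 kept its direction in all 21 but missed the threshold in 4. Its adjusted p in edgeR was 0.0677 without control high replicate 1, its highest library, and 0.0869 and 0.0929 when mutant high replicate 1 or 2 was left out. With transcripts kept separate as features it was 0.0767 in edgeR. The settings that left out a low library kept both high groups whole, and both genes were called in all of them. For Slc22a6 the losses came only where a high library was left out or transcripts were kept separate. Both control high libraries stand apart from the other 10. Chromosome M made up 4.51% and 10.3% of them and 0.494% to 1.96% of the others. Library totals ran from 4549011 to 12365078 fragments, with control high replicates 1 and 2 at 6249263 and 4549011. With chromosome M left out of the fit, the log2 fold changes were -3.04 for Slc22a6 and -2.65 for Slc22a8 (edgeR adjusted p = 0.0139 and 0.00385). In these bulk samples, fewer cells that express a gene and less RNA per cell cannot be told apart. Markers of proximal tubule and of the other kidney cell types were not analysed, because none of the table's identifiers is paired with a gene name in the sources used here, so the labelled cell type was not checked either.

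In low cells, the comparison by which Slc22a6 was chosen, the genotypes lay farther apart for Slc22a6 than for Slc22a8. That choice favours a large gap for Slc22a6, so the difference between the genes was not tested. The mutant low levels rest on 32 fragments of Slc22a6 and 30 of Slc22a8. The ratio of the means was 33.5 for Slc22a6, from a control level of 33.4 ± 18.5 CPM to a mutant level of 0.996 ± 0.885 CPM (SD, n = 4 each). It was 9.43 for Slc22a8, from 7.77 ± 4.45 to 0.824 ± 0.378 CPM (SD, n = 4 each). The fitted log2 fold changes were -5.14 (SE 0.68) and -3.20 (SE 0.49). In this comparison 3.21% of loci were called lower, which is given as background and not as support. With the 4 low libraries whose description number a high library shares, the log2 fold changes were -4.10 for Slc22a6 and -2.98 for Slc22a8. That fit leaves out control low replicates 1 and 4 and mutant low replicates 3 and 4 together.

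High cells held far more of both transcripts than low cells of the same genotype. In control kidney the ratio of the means was 56.4 for Slc22a6 and 37.0 for Slc22a8, and in mutant kidney it was 230.1 and 55.4. The fitted log2 differences were 5.82 (SE 0.66) and 5.21 (SE 0.48) in control, and 7.92 (SE 0.76) and 5.76 (SE 0.53) in mutant cells. Every high library exceeded every low library of its genotype, by at least 21.4-fold. The mutant difference for Slc22a6 rests on 32 fragments in the 4 mutant low libraries together, and it was 7.01 when only the 8 libraries with shared description numbers were fitted. As background, 52.3% of all loci tested were called in one direction or the other between the control populations and 32.2% between the mutant ones. These comparisons share the control low or mutant low libraries with the one that chose Slc22a6.

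**Figure D2:**
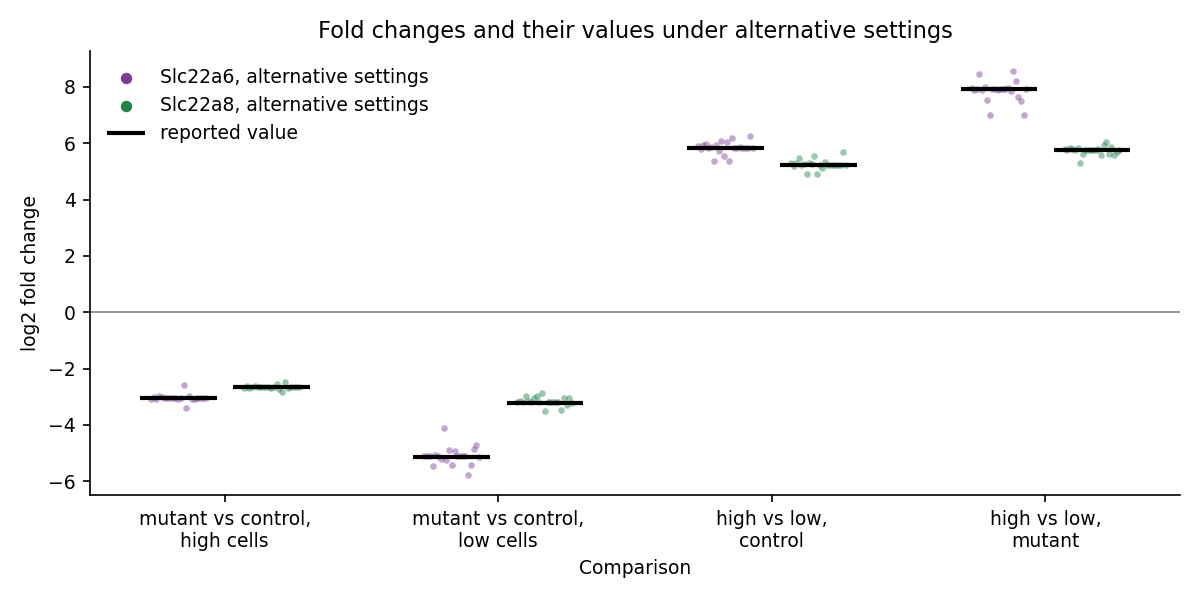
log2 fold changes of Slc22a6 (purple) and Slc22a8 (green) in the 4 comparisons; black lines are the reported values and small points the values under each alternative setting, including each library left out in turn. Both genes are negative in both mutant comparisons and positive in both high against low comparisons under every setting plotted, and the widest range, -5.78 to -4.10, is that of Slc22a6 between mutant low and control low cells.

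The share of Slc22a6 in the fragments of the pair ran from 75.5% to 88.7% over 3 of the groups and lay below that range in 3 of the 4 mutant low libraries. Of the fragments of both genes together, Slc22a6 took 88.7% and 83.6% in the control high libraries, and 81.0% and 85.6% in the mutant high libraries. In control low cells its share was 75.5%, 79.7%, 84.9% and 85.3%. In mutant low cells the shares were 60.7%, 76.9%, 25% and 22.2%, from 28, 13, 12 and 9 fragments of both genes. Summed over libraries, the share was 81.8% of 1540 fragments in control low cells (exact binomial 95% interval 79.7% to 83.7%). It was 51.6% of 62 fragments in mutant low cells (38.6% to 64.5%). These pooled intervals cover counting error only, not the spread between libraries. In control low cells that spread exceeded counting error, since the intervals of replicates 1 (70.1% to 80.4%) and 4 (82.4% to 87.9%) did not overlap. The 2 libraries with the lowest shares are mutant low replicates 3 and 4, at 3 of 12 and 2 of 9 fragments, and the other 2 mutant low libraries have intervals that reach the control low values. Because Slc22a6 was chosen for its low level in mutant low cells, a low share there is partly built into the choice, and it was not tested.

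**Figure D3:**
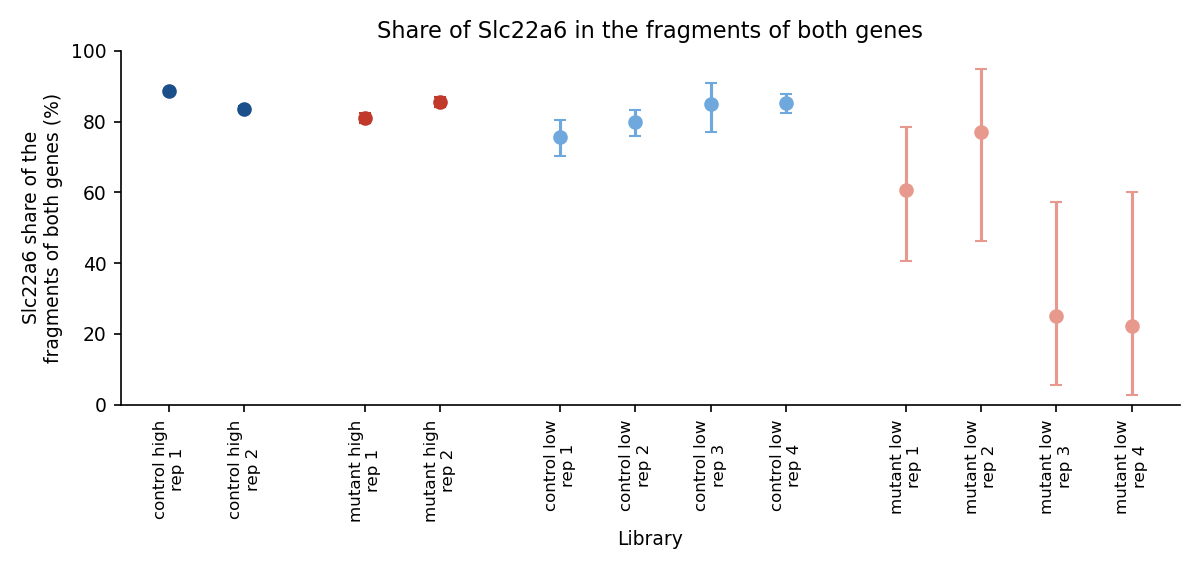
Share of Slc22a6 in the fragments of Slc22a6 and Slc22a8 together, in percent, for each library; bars are exact binomial 95% intervals and colours are groups. The 8 libraries outside mutant low cells lie between 75.5% and 88.7%, while mutant low replicates 3 and 4 lie at 25% and 22.2% with wide intervals.

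The surroundings of the genes were compared next, using loci chosen by position. Within 500 kb of the window lay 35 other loci, of which 28 had enough fragments to be tested, 2 before Slc22a8 and 26 after Slc22a6. In mutant high cells 6 of the 28 fell (21.4%, against 11.2% of all loci), 2 rose and 20 were not called, so 28.6% were called in all against 27.5%. In mutant low cells 1 of the 28 was called, which is 3.57% against 8.03% of all loci in either direction. The filter on low counts used all groups, and the called locus did not pass it with the low libraries alone. Between high and low cells 13 of 28 were called in control kidney (46.4%, against 52.3%) and 6 of 28 in mutant kidney (21.4%, against 32.2%). Their median log2 fold change was -0.48 in mutant high and -0.32 in mutant low cells, where that of all loci was 0.08 and -0.06.

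Just outside the window on the plus strand, the nearest locus is at 8738494 to 8758092, and it held at most 6 fragments in any library. The next locus after it, on the minus strand at 8781371 to 8797859, stood in high cells at 664 ± 192 CPM (control) and 220.5 ± 49.9 CPM (mutant; SD, n = 2 each). Its log2 fold change was -1.59 (edgeR adjusted p = 0.0843, and 0.00420 to 0.320 over the alternatives). At the other end the nearest loci lie on the minus strand, and in both of them the group means had the order of the 2 transporters. In the low groups single libraries overlapped. At the farther locus, control low replicate 3 held 0.108 CPM and mutant low replicate 1 held 0.231 CPM. In the stretch of the nearer locus from 8410112 to 8479595, control low replicate 3 held 0 fragments and mutant low replicate 3 held 2.

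The nearer one, at 8234657 to 8479595, had control and mutant high-cell levels of 107 ± 34.5 and 23.7 ± 11.1 CPM (SD, n = 2 each). Its low-cell levels were 1.71 ± 0.871 and 0.0936 ± 0.112 CPM (SD, n = 4 each). It fell by 2.19 in mutant high cells (SE 0.56, edgeR adjusted p = 0.0104) and by 4.13 in mutant low cells (SE 0.76, edgeR adjusted p = 0.00306). It was the single neighbour called in low cells, and that call was lost in the fit of the 8 libraries with shared description numbers (log2 fold change -3.93, edgeR adjusted p = 0.218). With the low libraries alone this locus did not pass the filter on low counts. It was tested in low cells only because of its level in high cells, so that call is given as a description, not as support. The locus joins separate stretches through 1 transcript that held at most 2.04 fragments, so both stretches are given. The stretch from 8234657 to 8293329 held 83.3 ± 23.6 CPM in control high, 18.5 ± 8.19 CPM in mutant high and 1.08 ± 0.657 CPM in control low samples (SD, n = 2, 2 and 4). It had 0 fragments in the 4 mutant low libraries, which allows up to 0.0821 CPM over the group. The stretch from 8410112 to 8479595 held 24.1 ± 10.9, 5.22 ± 2.88, 0.576 ± 0.407 and 0.0936 ± 0.112 CPM in control high, mutant high, control low and mutant low cells.

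The farther one, at 8136698 to 8206472, had a log2 fold change of -3.39 in mutant high cells, where it was called. It held 118 and 14 fragments in control high and 13 and 12 in mutant high cells (SE of the log2 fold change 0.86, edgeR adjusted p = 0.01003). The size rests on control high replicate 1, without which it was -1.50, and without control high replicate 2 it was -4.17. In low cells its log2 fold change was -3.12 (edgeR adjusted p = 0.113), on 23 fragments in control low and 2 in mutant low cells. With the low libraries alone the farther locus did not pass the filter either. The calls of these 2 loci in high cells were lost without some libraries and, with transcripts kept separate, had edgeR adjusted p of 0.150 (nearer) and 0.158 (farther). Without control high replicate 1 the adjusted p in edgeR was 0.0899 at the nearer locus and 0.319 at the farther one, and without mutant high replicate 1 it was 0.0970 and 0.0743. The farther one also missed the threshold without mutant high replicate 2 (edgeR adjusted p = 0.0711). In RefSeq (GRCm38.p6) the protein-coding genes just before Slc22a8 are Slc22a28, Slc22a29 and Slc22a30, relatives of the pair, and those just after Slc22a6 are Chrm1 and Slc3a2. That order does not pair these names with rows of the file, and fragments shared between near-identical relatives could not be examined.

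After Slc22a6 the called loci with the largest fold changes in mutant high cells, all libraries included, were at 8954503 to 8955423 and 8867618 to 8873047. Their log2 fold changes were -3.28 (SE 0.87, edgeR adjusted p = 0.0128) and -2.77 (SE 0.72, edgeR adjusted p = 0.0111). Both are scarce, with control high levels of 3.27 ± 1.39 and 5.40 ± 4.40 CPM (SD, n = 2 each). Leaving out control high replicate 2 gave edgeR adjusted p of 0.105 and 0.218, with log2 fold changes of -2.81 and -1.58, and leaving out mutant high replicate 2 gave 0.112 and 0.0593, with -2.68 and -2.91. Without control high replicate 1 they were -3.65 and -3.42, and without mutant high replicate 1 they were -4.54 and -2.58, where the second locus missed the threshold (edgeR adjusted p = 0.0751). With transcripts kept separate the adjusted p in edgeR was 0.143 and 0.0685. In both of them the mean of control low cells (0.578 ± 0.286 and 1.20 ± 0.433 CPM, SD, n = 4) lay above that of mutant high cells (0.303 ± 0.255 and 0.769 ± 0.131 CPM, SD, n = 2). That order of means is unlike the order of the transporters. It rests on 60 and 131 fragments over all libraries, and it was not tested.

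**Figure D4:**
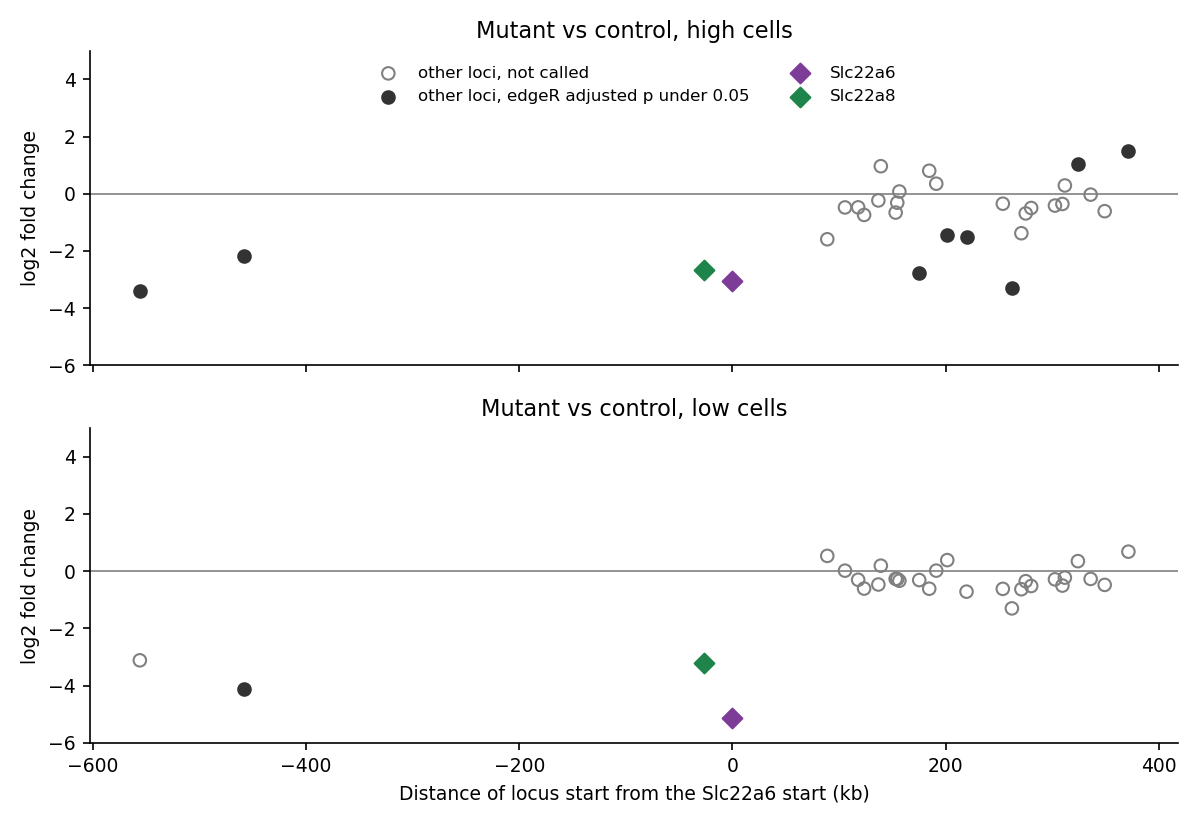
log2 fold change of mutant against control in high cells (top) and low cells (bottom) for the 28 tested neighbours and the 2 transporters, by distance of the locus start from the Slc22a6 start in kb; filled circles have an edgeR adjusted p under 0.05, open circles do not, and diamonds are the transporters. In low cells the 26 loci after Slc22a6 lie between -1.30 and 0.68, while both loci before Slc22a8 lie at -4.13 and -3.12. Neither of the loci before Slc22a8 passed the filter with the low libraries alone.

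Other loci followed the Slc22a6 profile more closely than Slc22a8 did. Likeness was the Pearson correlation of log2(CPM + 1) over all 12 libraries, which share the contrast of high and low cells, and it is given as a description. Slc22a8 had r = 0.981 and came 17th of 13748 loci. The 6 most similar loci other than Slc22a8 had r of 0.987 to 0.992. They lie on chromosome 17 (43611277 to 43639722, minus strand), chromosome 10 (75031408 to 75048927, plus), chromosome 13 (73799197 to 73815471, minus), chromosome 7 (51827814 to 51842216 and 126697853 to 126744208, both plus) and chromosome 16 (17835368 to 17838279, minus). In all 6 the groups came in the order of the transporters without overlap. In all 8 profiles, the 2 transporters included, control low replicate 3 was the lowest control low library. At the chromosome 16 locus it was nearly tied with replicate 1 (4.593 against 4.594 in log2(CPM + 1)). The 6 loci were picked for likeness to Slc22a6 over these same libraries. Their shared order of groups and shared lowest replicate are therefore largely built into the choice. Their names are not given, because the file does not pair identifiers with genes.

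The most similar locus, on chromosome 17, averaged 1305 and 251 CPM in control and mutant high cells, and 29.4 and 1.68 CPM in control and mutant low cells. The one on chromosome 13 averaged 879, 165, 18.8 and 0.784 CPM in the same sequence of groups. Of 13748 loci compared, 528 had r of at least 0.9 with Slc22a6 over the 12 libraries and 137 had at least 0.95. Such an r does not by itself give the order of the groups, which was not checked for these loci beyond those listed above.

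Over the 8 low libraries alone, Slc22a8 had r = 0.944 and came 65th of 13741 loci. These are the libraries of the comparison that chose Slc22a6 for its low level in mutant low cells. Loci ranked high there therefore tend to be lower in mutant low cells by the choice itself, and the ranks are given as a description. The 6 most similar loci there had r of 0.978 to 0.988, and 0 of them were among the 6 above. They lie on chromosome 8 (86534128 to 86535341, minus strand), chromosome 19 (5877825 to 5885768, plus), chromosome 9 (119102095 to 119118223, minus), chromosome 18, chromosome 3 (145421655 to 145557241, plus) and chromosome 2 (126419403 to 126444401, minus). The locus on chromosome 3 differed in scale, averaging 160.3 CPM in control and 95.4 CPM in mutant low cells, while the one on chromosome 2 had 19.1 and 1.33 CPM. The most similar locus, on chromosome 8, was scarce in low cells, with 1.28 CPM in control and 0.212 CPM in mutant, so its rank rests on few fragments.

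**Figure D5:**
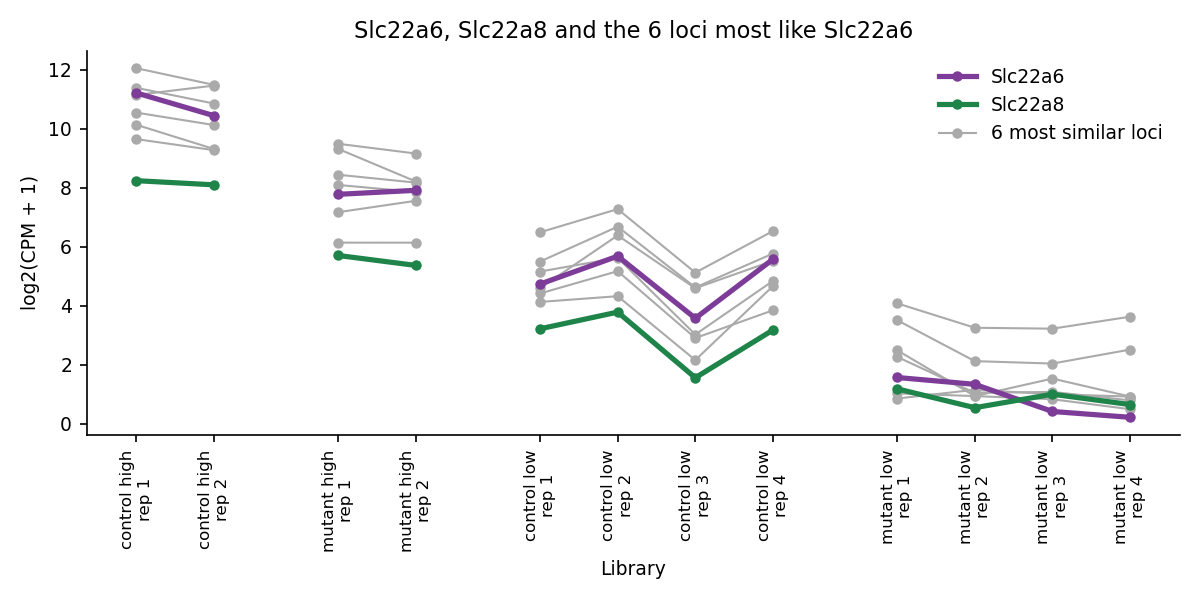
log2(CPM + 1) of Slc22a6 (purple), Slc22a8 (green) and the 6 loci most like Slc22a6 (grey) in each library, lines joining libraries of 1 group. All 8 profiles step down from control high to mutant high, control low and mutant low cells, and all dip at control low replicate 3. For the grey loci this is largely built into choosing them by likeness over these libraries.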

How the data were processed

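The deposited table holds expected counts, that is estimated fragments per transcript, not normalized, in 1 column for each of the 12 samples. The file's title attributes the values to CuffDiff2, and Bowtie2, HTSeq, DESeq2 and the build mm9 appear, with no role or version, in the submitters' processing notes. For strand use and for fragments with several alignments, the setting is not given in the sources used here. Dropped were 303 rows with no position and 0 fragments. Transcripts overlapping on 1 strand were summed to 26699 loci, rounded to whole counts, because fragments had been divided between isoforms. Positions are printed as deposited.

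Groups and replicate numbers came from the titles. All 12 libraries entered 1 fit of 4 groups with edgeR 4.0.16 in R 4.3.3 (TMM, filterByExpr, robust quasi-likelihood F test, two-sided, no covariate), which kept 13749 loci. Benjamini-Hochberg adjustment ran over all of them, with a threshold of 0.05. CPM values use the TMM-scaled library sizes. The same comparisons were run with limma 3.58.1 (voom), DESeq2 1.42.0, RLE scaling, no filter, each transcript as a feature, only the groups compared, a replicate block, the 8 libraries that share a description number, and each library left out. The settings without chromosome M and with the description number as a block were added after the data had been seen.

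The members, lists and rules were chosen with earlier results of these data known. Neighbours were all loci within 500 kb. The text names the 2 nearest on each side, the 3 with the largest called change in mutant high cells, and the 6 loci most correlated with Slc22a6 over all and over low libraries. Lists of organic anion pathway genes and cell type markers were not used, since 0 of the identifiers were found in the reference tables. Promoters are from RefSeq, GRCm38.p6, and both genes matched by symbol.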

Additional observations from a re-analysis of the deposited data

How the results depend on the processing

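The direction of both transporters in all 4 comparisons was the same in every alternative run, 21 for each mutant comparison and 22 for each of the others. For Slc22a6 in high cells the log2 fold change was -3.01 with each transcript as a feature, and leaving out 1 library gave -3.39 to -2.56 (edgeR adjusted p up to 0.0929). For Slc22a8 leaving out 1 library gave -2.83 to -2.47. A lone library left in a group is assumed to vary like the others. The count of loci called in mutant high cells was 3780, 2012 with each transcript as a feature and 1996 to 4010 leaving out 1 library. In mutant low cells it was 1104, 427 with each transcript as a feature, 257 for the 8 libraries sharing description numbers and 774 to 1149 leaving out 1 library. Between mutant high and low cells it was 4427, 2713 with each transcript as a feature and 2883 to 4460 leaving out 1 library. In low cells the uncalled locus at 8781371 (log2 fold change 0.54) had -0.12 with those 8 libraries and -0.018 to 0.83 leaving out 1 library, and the uncalled locus at 8867618 (-0.31) had 0.27 with the 8 libraries. The cause of these shifts was not tested. Same-numbered samples of control low and mutant low cells had deviations correlated with r of 0.067 to 0.47, and those of the high groups -0.055. With 2 libraries in each high group the deviations mirror each other, so -0.055 is a single value. High and low libraries sharing a description number had r of 0.22 and 0.14 in mutant and -0.055 and -0.084 in control cells. The main fit used no pairs, and these values do not decide whether either number marks pairs. With the replicate block the log2 fold changes in high cells were -3.03 and -2.65 for Slc22a6 and Slc22a8, with both still called, and 4454 loci were called. Each mutant low library held 2 to 17 fragments of either transporter, which limits the precision of those levels. The spread between these libraries also exceeded counting error for Slc22a6, where the interval of replicate 1 (1.14 to 3.14 CPM) did not overlap those of replicates 3 (0.0687 to 0.974 CPM) and 4 (0.0197 to 0.587 CPM).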
